A study of Mus musculus with 14 samples.

Results

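The annexin genes described here are Anxa11, Anxa1, Anxa2, Anxa3, Anxa4, Anxa5, Anxa6, Anxa7 and Anxa8, 9 of the 23284 genes counted in primary small cell lung cancers of the mouse. The family was taken up because Anxa11 was among the genes called lower after deletion of Crebbp, and the other 8 were chosen by their name as relatives of it. Values of Anxa11 in that comparison are therefore given as a description. The files also hold Anxa9, Anxa10 and Anxa13, which are given briefly.

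Annexins are proteins that bind acidic phospholipids in membranes when calcium is present, through a conserved core made of repeats, and differ mainly in their amino-terminal tails. The tails bind partners such as S100 proteins and penta-EF-hand proteins, and the family is known for roles in membrane repair, exocytosis, endocytosis and the control of inflammation. The cancer studied is a neuroendocrine carcinoma of the lung, and Crebbp encodes a histone acetyltransferase that acts as a coactivator of transcription factors, CREB among them.

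The libraries came from genetically engineered mice and fall into 2 groups of 7. The first, called RPC, has the genotype Rb1/Trp53/Crebbp, and the second, called RP, has the genotype Rb1/Trp53, so loss of the tumour suppressors Rb1 and Trp53 is common to both. The labels name neither the deleted exons nor the promoter that drove recombination, nor the age of the mice, and do not give the number of mice, so the spread behind each p-value is that between libraries and may be partly technical. The counts in genes were 10060969 to 24052799 per RPC library and 10965714 to 23678648 per RP library. Crebbp itself was at 57.9 to 70.0 CPM (counts relative to the library's total in genes, scaled by TMM) in RPC and 59.4 to 97.2 CPM in RP, a log2 fold change of -0.24 with an SE of 0.12 (edgeR adjusted p = 0.264), and since this count covers the whole gene it does not check the deletion.

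RPC tumours 3, 5 and 6 are given apart from RPC tumours 1, 2, 4 and 7 throughout, because many markers of other cell types were nearly missing from them. Of 46 markers of macrophages, neutrophils, lymphocytes, fibroblasts, endothelium, mesothelium and lung epithelium, 33 were lower in each of these 3 libraries than in any of the other 11, and 9 had 0 counts in all 3. Summed macrophage markers were at 4.92 to 8.47 CPM in RPC tumours 3, 5 and 6, at 408 to 1950 CPM in the other RPC tumours and at 501 to 1390 CPM in RP tumours. Neuroendocrine markers, which define the labelled tumour type, were present in every library and summed to 2230 to 3810 CPM, 1860 to 3810 CPM and 3830 to 9400 CPM in the same order; edgeR called 0 of these 5 genes (1 lower and 0 higher at an unadjusted p under 0.05). Of all genes tested, 21.3% passed that unadjusted threshold in either direction. In bulk RNA, fewer cells of a type and less RNA per cell cannot be told apart.

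The upstream sequences of Anxa11 and Anxa4 are shown because these genes were the annexins that were lower in every RPC tumour. RefSeq's promoter table held windows for 7 of the 9 genes, and the 250 bases before the start are printed 5′ to 3′ in the direction of transcription. Capitals mark GC boxes (GGGCGG on either strand), the binding motif of Sp1 family factors, and the half-site of the CREB response element (TGACG on either strand). Anxa4 has 2 annotated starts in the table.
Anxa11 (GRCm38.p6, chr14:25841905-25842154, plus strand): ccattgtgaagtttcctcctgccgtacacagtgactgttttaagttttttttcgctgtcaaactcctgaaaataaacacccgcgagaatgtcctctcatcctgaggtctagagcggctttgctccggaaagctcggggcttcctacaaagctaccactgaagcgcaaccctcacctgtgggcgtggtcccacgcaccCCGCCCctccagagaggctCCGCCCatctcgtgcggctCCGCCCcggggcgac
Anxa4, first start (GRCm38.p6, chr6:86793585-86793834, minus strand): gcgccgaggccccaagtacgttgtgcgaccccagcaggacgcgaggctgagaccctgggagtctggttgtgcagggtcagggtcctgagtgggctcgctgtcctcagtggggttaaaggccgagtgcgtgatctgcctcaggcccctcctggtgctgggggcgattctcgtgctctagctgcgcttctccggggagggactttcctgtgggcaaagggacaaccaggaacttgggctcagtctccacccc
Anxa4, second start (GRCm38.p6, chr6:86775115-86775364, minus strand): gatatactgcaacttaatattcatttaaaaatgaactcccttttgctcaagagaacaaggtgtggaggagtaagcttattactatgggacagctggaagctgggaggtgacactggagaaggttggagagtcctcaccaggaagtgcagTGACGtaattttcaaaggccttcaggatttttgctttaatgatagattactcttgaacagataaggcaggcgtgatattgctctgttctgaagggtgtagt

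The window of Anxa11 held 3 GC boxes near its start, 58% G and C and 17 CpG dinucleotides. That of the first Anxa4 start was at 64.8% G and C with 13 CpG and held none of the motifs searched, and that of the second start was at 42% with 2 CpG and held 1 CREB half-site. The full CREB response element (TGACGTCA), which contains the half-site, was in 0 of the 9 windows of the 7 genes and in 1.55% of all 32851 windows of the table. The half-site was in 1 of the 9 windows, against 17.8% of all. GC boxes were in 4 of 9 (32.7% of all). Both windows of Anxa7 were among these 4, and they overlap and share a GC box. A TATA box (TATAAA) was in the windows of Anxa1 and Anxa2 (12.4% of all). A match to these letters is a description of the window and not a bound site.

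Anxa11, which encodes an annexin with a long amino-terminal tail that has been found to tether RNA granules to lysosomes, was lower in RPC than in RP tumours. Its levels were 44.0, 62.4, 43.2 and 44.1 CPM in RPC tumours 1, 2, 4 and 7 and 41.1, 46.7 and 19.3 CPM in RPC tumours 3, 5 and 6, against 87.2 to 296 CPM with a median of 142 CPM in RP tumours. Every RPC value lay below every RP value. RPC tumour 5 sat among RPC tumours 1, 2, 4 and 7, and RPC tumour 3 was just below them. RPC tumour 6 was the lowest of the 14, and RP tumour 2 was the highest. The mean of RPC tumours 3, 5 and 6, at 35.7 CPM, was 73.7% of that of the other RPC tumours. Mean levels were 43.0 ± 12.6 CPM in RPC and 152 ± 66.7 CPM in RP (SD, n = 7 each), a log2 fold change of -1.82 (SE 0.27). Over RPC tumours 1, 2, 4 and 7 alone the mean was 48.5 ± 9.33 CPM (SD, n = 4), or 31.9% of the RP mean, with a log2 fold change of -1.64 (SE 0.30).

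**Figure D1:**
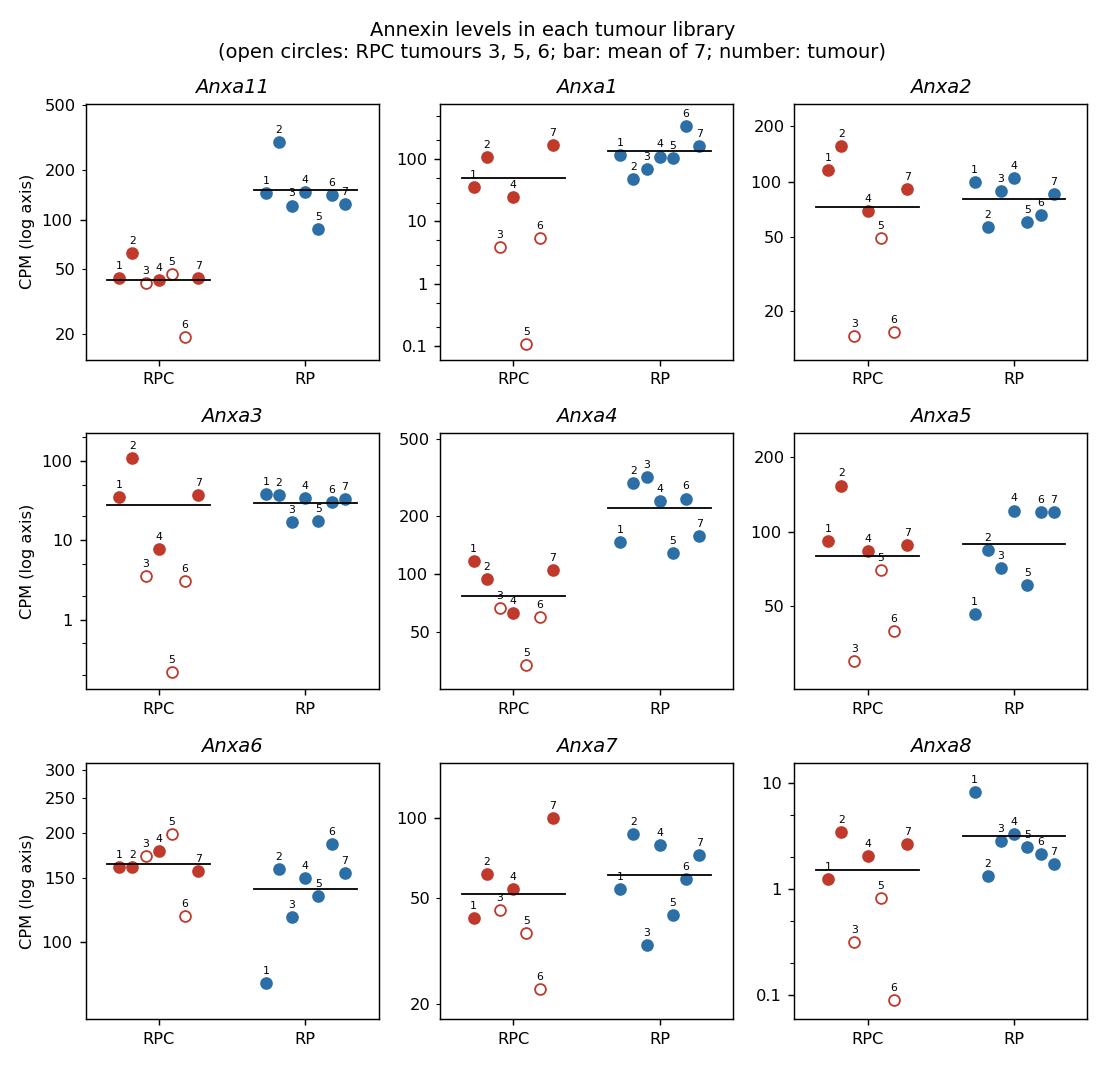
Level of each of the 9 annexin genes in each library, in CPM on a log axis, with RPC left of RP in each panel; points are single tumours numbered as in the labels, open circles are RPC tumours 3, 5 and 6, and the bar is the mean of 7. For Anxa11 and Anxa4 every RPC point lies below every RP point, and for Anxa1 and Anxa3 the open circles lie below all other points.

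Every RPC value was below every RP value for 0.635% of the 14804 genes with enough counts to test, and above for 0.513%. Anxa4, an annexin of secretory and polarised epithelia, was the other member with all RPC values below. It was at 116, 94.4, 62.3 and 104 CPM in RPC tumours 1, 2, 4 and 7 and at 66.1, 33.7 and 59.4 CPM in RPC tumours 3, 5 and 6, against 128 to 320 CPM with a median of 240 CPM in RP tumours. The values of RPC tumours 3 and 6 were close to that of RPC tumour 4, the lowest of RPC tumours 1, 2, 4 and 7. RPC tumour 5 was the lowest of all. The mean of RPC tumours 3, 5 and 6, at 53.1 CPM, was 56.4% of that of the other RPC tumours. Anxa4 fell in RPC tumours, to 76.6 ± 29.1 CPM against 219 ± 75.9 CPM in RP tumours (SD, n = 7 each), a log2 fold change of -1.52 (SE 0.28) at an edgeR adjusted p of 0.0218. Of all genes tested, 1.12% were called lower and 1.09% higher at an adjusted p under 0.05. The adjusted p went over the threshold when either RP tumour 6 was left out (0.0512) or RPC tumour 3 was (0.0513). Without RPC tumours 3, 5 and 6 the log2 fold change was -1.22 (SE 0.29) at an edgeR adjusted p of 0.145. Since every RPC value lay below every RP value, this had to hold for RPC tumours 1, 2, 4 and 7 too (1.19% of genes were lower in this way there). The summed neuroendocrine markers given above were also lower in every RPC than in every RP tumour, and their part in the values of Anxa11 and Anxa4 was not tested.

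Of the 8 annexins besides Anxa11, edgeR called 1 lower, Anxa4, and 0 higher. At an unadjusted p under 0.05 the counts were also 1 and 0, where 21.3% of all genes tested passed in either direction. DESeq2 and limma-voom gave 1 lower and 0 higher as well, with 5.21% and 1.97% of all genes called lower and 4.84% and 1.43% called higher. Sizes differed by method for Anxa1 and Anxa3. Their log2 fold changes were -3.45 (SE 1.11) and -1.86 (SE 0.895) with limma-voom, against -1.47 and -0.08 with edgeR. By edgeR the median log2 fold change of the 8 was -0.20, with 7 of 8 negative, against a median of 0.002 and 49.8% negative over all genes tested. Without RPC tumours 3, 5 and 6 the median was 0.15 with 37.5% negative, against -0.01 and 51% over all genes tested there.

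Anxa1, Anxa3 and Anxa8 were lowest in RPC tumours 3, 5 and 6. Anxa1 encodes annexin A1, a glucocorticoid-induced inhibitor of inflammation that signals through formyl peptide receptors. It was at 3.88, 0.109 and 5.36 CPM in RPC tumours 3, 5 and 6 and at 36.3, 107, 24.6 and 168 CPM in RPC tumours 1, 2, 4 and 7, against 47.5 to 345 CPM with a median of 110 CPM in RP tumours. The value of RPC tumour 5 rests on 2 counts. RPC tumours 2 and 7 lay within the RP range, and tumours 1 and 4 were below it. The mean of RPC tumours 3, 5 and 6 was 2.28% of the RP mean, and that of RPC tumours 1, 2, 4 and 7 was 61.4% of it. The log2 fold change over all libraries was -1.47 with an SE of 0.93 (edgeR adjusted p = 0.376), and without the 3 it was -0.70 with an SE of 0.58 (adjusted p = 0.698).

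Anxa3, an annexin of myeloid and epithelial cells, was at 3.56, 0.217 and 3.04 CPM in RPC tumours 3, 5 and 6 and at 35.1, 108, 7.75 and 36.6 CPM in RPC tumours 1, 2, 4 and 7, against 16.7 to 38.1 CPM with a median of 33.0 CPM in RP tumours. It spread widely among RPC tumours on both sides of the narrow RP range. RPC tumour 2 was above every RP tumour, and RPC tumour 4 was below every one. With all libraries the log2 fold change was -0.08 (SE 0.83, edgeR adjusted p = 0.965), and without the 3 it was 0.67 (SE 0.50, adjusted p = 0.647). Its sign was not settled, as it also turned when RP tumour 1 (0.007) or RPC tumour 4 (0.081) was left out.

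Anxa8, an annexin of stratified epithelia that associates with endosomes, was the scarcest of the 9, at 0.314, 0.814 and 0.0894 CPM in RPC tumours 3, 5 and 6 and at 1.23 to 3.44 CPM in RPC tumours 1, 2, 4 and 7, against 1.32 to 8.18 CPM in RP tumours. The value of RPC tumour 6 is 1 count. Its log2 fold change of -1.05 (SE 0.63, adjusted p = 0.349) was not called.

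The low values of these annexins fell in the 3 libraries that were set apart by low values of most of the markers named above. Summed fibroblast markers were at 4.4 to 126 CPM in RPC tumours 3, 5 and 6, at 272 to 639 CPM in the other RPC tumours and at 236 to 870 CPM in RP tumours. The high end of the first range was Pdgfra, the platelet-derived growth factor receptor alpha, at up to 117 CPM in these 3. Its highest value was lower in the other RPC tumours (58.6 CPM) and in RP tumours (39.1 CPM). The collagen genes Col1a1 and Col3a1 were at or below 0.943 and 0.629 CPM in these 3. Summed endothelial markers were at 2.15 to 85.5 CPM, 51.9 to 304 CPM and 86.1 to 261 CPM in the same order. The high end of the first range was Kdr, at up to 82.9 CPM in these 3. That was above its highest value in the other RPC tumours (33.1 CPM) and in RP tumours (29.4 CPM). Cdh5, which encodes VE-cadherin, was at 0 in the 3 libraries. Summed club cell markers were at 1.14 to 21.1 CPM, 21.2 to 2180 CPM and 22.2 to 2410 CPM. Summed alveolar type 2 markers were at 9.12 to 19.6 CPM, 6.91 to 2540 CPM and 52.1 to 1410 CPM, so at least 1 other RPC tumour was as low in these. Summed alveolar type 1 markers were at 7.24 to 28 CPM, 13.1 to 546 CPM and 30.7 to 228 CPM, so they overlapped with the other RPC tumours. Summed neutrophil markers overlapped with both other groups, at 8.49 to 9.74 CPM, 9.69 to 16.5 CPM and 7.38 to 23.5 CPM. The part of these cells in the annexin values was not tested.

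Anxa2 and Anxa5, which are abundant in many cell types, were lowest of all 14 libraries in RPC tumours 3 and 6. Anxa2 encodes the annexin that forms a tetramer with S100a10 and binds plasminogen activators at the cell surface. It was at 14.8, 49.5 and 15.5 CPM in RPC tumours 3, 5 and 6 and at 116, 156, 69.8 and 91.6 CPM in RPC tumours 1, 2, 4 and 7, against 56.6 to 104 CPM with a median of 86.1 CPM in RP tumours. All of RPC tumours 3, 5 and 6 were below the RP range, and RPC tumours 1 and 2 were above it. Over all libraries the log2 fold change was -0.13 with an SE of 0.44 (edgeR adjusted p = 0.885), and it was 0.44 with an SE of 0.24 without the 3 (adjusted p = 0.507).

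Anxa5, whose protein binds phosphatidylserine and is widely used as a stain for dying cells, was at 30.0, 69.8 and 39.8 CPM in RPC tumours 3, 5 and 6 and at 91.5, 154, 83.3 and 88.3 CPM in RPC tumours 1, 2, 4 and 7, against 46.3 to 122 CPM with a median of 84.2 CPM in RP tumours. RPC tumours 3 and 6 were below the RP range, RPC tumour 2 was above it, and the other 4 were within it. The log2 fold change of Anxa5 was -0.17 with an SE of 0.33 (edgeR adjusted p = 0.792), or 0.23 with an SE of 0.29 without the 3 (adjusted p = 0.831).

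Anxa7, which encodes synexin, an annexin of secretory vesicle fusion, and Anxa6, an annexin with a doubled core that acts in endocytosis and cholesterol transport, overlapped between genotypes over most of their range. Anxa7 was at 22.8 to 99.5 CPM with a median of 45.3 CPM in RPC tumours, against 33.5 to 86.7 CPM with a median of 59.2 CPM in RP tumours (log2 fold change -0.24, SE 0.29, edgeR adjusted p = 0.645). Only RPC tumour 6 was below the RP range and only RPC tumour 7 was above it. Anxa6 was at 173, 199 and 118 CPM in RPC tumours 3, 5 and 6 and at 161, 161, 178 and 157 CPM in RPC tumours 1, 2, 4 and 7, against 76.8 to 186 CPM with a median of 150 CPM in RP tumours. Its mean in RPC tumours 3, 5 and 6, where macrophage markers were near 0, was 99.2% of that in the other RPC tumours. Its log2 fold change of 0.23 (SE 0.17, adjusted p = 0.457) was the single positive one among the 9.

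**Figure D2:**
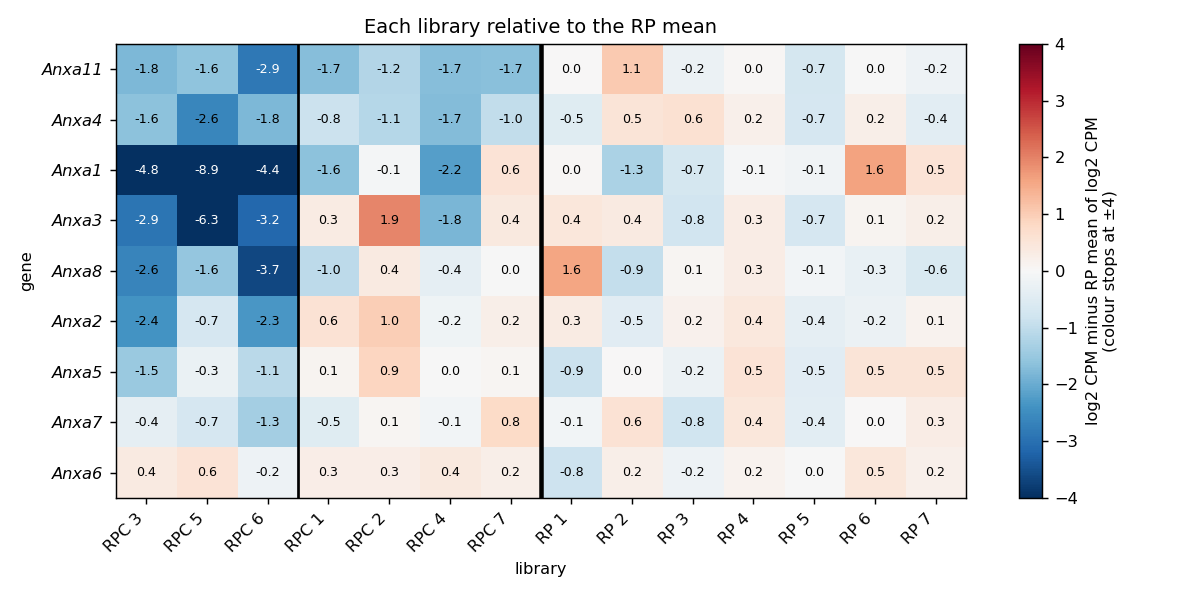
Log2 CPM of each annexin gene (rows) in each library (columns) minus the mean log2 CPM of the 7 RP tumours, with RPC tumours 3, 5 and 6 left of the thin line, the other RPC tumours between the lines and RP tumours to the right. Anxa11 is between -2.87 and -1.18 in all 7 RPC tumours, Anxa1 is between -8.89 and -4.38 in RPC tumours 3, 5 and 6, and Anxa6 is between -0.20 and 0.55 in RPC tumours.

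The plot of log2 fold changes with and without RPC tumours 3, 5 and 6 sets Anxa11 and Anxa4, which kept their sign and most of their size, beside the members whose sign turned. For Anxa11 and Anxa4 the sign was all but fixed, since every RPC value lay below every RP value. Without the 3 libraries edgeR called 0 of the 8 annexins besides Anxa11 (1 was lower at an unadjusted p under 0.05, Anxa4, and 0 were higher, where 11.9% of all genes tested passed in either direction), while 0.0521% of all genes tested were called lower and 0.0195% higher.

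**Figure D3:**
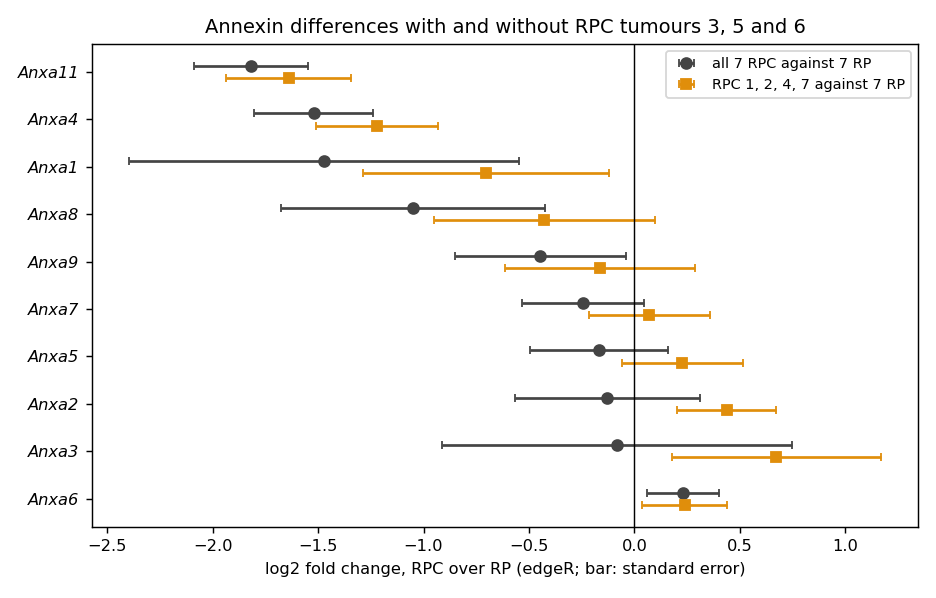
Log2 fold change of RPC over RP with its standard error (edgeR) for the 10 annexin genes with enough counts to test, over all 14 libraries (circles) and without RPC tumours 3, 5 and 6 (squares). Anxa11 is at -1.82 and -1.64 and Anxa4 at -1.52 and -1.22, and Anxa2, Anxa3, Anxa5 and Anxa7 change sign.

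Per kilobase of the longest annotated transcript, the order of the annexins differed between genotypes. In RPC tumours Anxa6 came first at 65.8 ± 9.92 CPM per kilobase, followed by Anxa5 (45.9 ± 23.5), Anxa2 (32.2 ± 22.9), Anxa1 (29.5 ± 38.3), Anxa4 (29.2 ± 11.1), Anxa7 (17.8 ± 8.40), Anxa3 (17.4 ± 24.3) and Anxa11 (15.7 ± 4.63). In RP tumours Anxa4 came first at 83.6 ± 29.0 CPM per kilobase, followed by Anxa1 (81.7 ± 59.2), Anxa6 (56.1 ± 14), Anxa11 (55.5 ± 24.4), Anxa5 (51.5 ± 18.2), Anxa2 (35.2 ± 8.36), Anxa7 (21.1 ± 6.66) and Anxa3 (18.5 ± 5.51; SD, n = 7 each). Anxa11 was thus in place 8 in RPC and place 4 in RP tumours, and Anxa4 in place 5 and place 1. Neighbours in each order overlapped in their ranges, with the exception of the step down to the scarce annexins. Below that step were Anxa9 (1.63 ± 0.70 and 2.22 ± 1.24), Anxa8 (0.80 ± 0.66 and 1.67 ± 1.23), Anxa10 and Anxa13 in both genotypes.

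Of the annexins outside the 9, Anxa9, an annexin thought to have lost calcium binding, was at 1.36 to 4.89 CPM in RPC and 1.66 to 8.49 CPM in RP tumours (log2 fold change -0.45, SE 0.41, edgeR adjusted p = 0.546). Anxa10, known from stomach epithelium, and Anxa13, known from gut epithelium, had too few counts to test. Anxa10 had 0 counts in 4 of 7 RPC and 1 of 7 RP libraries, and Anxa13 in 4 of 7 and 0 of 7. A count of 0 allows up to 3 counts, or 0.118 to 0.314 CPM by library, for counting error only.

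The annexins are spread over chromosomes 14 (Anxa7, Anxa8 and Anxa11), 19 (Anxa1), 9 (Anxa2), 5 (Anxa3), 6 (Anxa4), 3 (Anxa5) and 11 (Anxa6) of the RefSeq assembly. Of 499 tested genes on chromosome 14, 2 (0.401%) were called lower and 3 higher, and their median log2 fold change was 0.20. Over all genes tested, 1.12% were called lower and 1.09% higher, with a median of 0.002. The 3 tested genes on each side of Anxa11 were Ppif, its antisense partner Ppifos and Zcchc24, then Slmap, Fam116a and Arf4. None of these 6 was called by edgeR (lowest adjusted p = 0.296, for Arf4), with log2 fold changes from -0.93 for Zcchc24 to 0.45 for Arf4. Between Anxa11 and Anxa7 lie 28 tested genes, and between Anxa11 and Anxa8 lie 62. Anxa11 itself overlaps an antisense gene, Anxa11os, in GENCODE, as 5 of the 9 annexins overlap a gene on the other strand; with no strand setting stated, reads of such pairs cannot be told apart.

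Within genotypes, the annexin that varied most closely with Anxa11 was Anxa7. After each genotype's mean was subtracted from log2 CPM, Pearson's r with Anxa11 over the 14 libraries was between 0.102 for Anxa1 and 0.669 for Anxa7, which was at rank 186 of the 12488 genes with a mean of at least 5 CPM. Over the 11 libraries without RPC tumours 3, 5 and 6 it was between -0.174 for Anxa1 and 0.505 for Anxa7, with 0.502 for Anxa4. The genes most like Anxa11 by this measure were Zfp52, a zinc finger gene (r = 0.851), Pdzd7, a PDZ domain gene of hair cells (0.847), Ap1g2, an adaptor complex subunit (0.835), Btd, which encodes biotinidase (0.828), and Irf9, an interferon response factor (0.827). Their r without RPC tumours 3, 5 and 6 was 0.718 to 0.873. These values describe libraries that differ in depth and cell content, and none of the 5 was called between genotypes (edgeR adjusted p from 0.185 to 0.945).

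The partners of annexins were read from fixed lists of related genes. S100 proteins are small calcium-binding proteins that dock on annexin tails. Of 16 S100 genes 11 could be tested, and 0 were called by edgeR. At an unadjusted p under 0.05, 2 were lower and 0 higher, where 21.3% of all genes tested passed in either direction. Over all libraries the median log2 fold change was -0.94, against 0.002 over all genes tested. Without RPC tumours 3, 5 and 6 it was -0.32, against -0.01. The genes of highest mean CPM over the 14 libraries were S100a16, at 74.6 ± 90.3 CPM in RPC and 258 ± 472 CPM in RP, and S100a14, at 13.2 ± 10.8 CPM and 140 ± 300 CPM (SD, n = 7 each), where RP tumour 6 held most of the RP signal; by the median over RP tumours S100a14, at 23.6 CPM, was below S100a11, at 60.9 CPM. Of the known annexin partners, named here after their values were seen, S100a6, which binds annexin A11, had a log2 fold change of 0.10 (SE 0.77), S100a10, which binds annexin A2, of 0.43 (SE 0.68), and S100a11, which binds annexin A1, of -0.68 (SE 0.54), with edgeR adjusted p from 0.486 to 0.953.

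Penta-EF-hand proteins are calcium-binding proteins that include partners of annexins A7 and A11. Of the 8 tested, 1 was called lower and 0 higher by edgeR, where 1.12% and 1.09% of all genes tested were. At an unadjusted p under 0.05 the counts were 1 and 0, against 21.3% of all genes in either direction, with a median log2 fold change of -0.09. Gca, which encodes grancalcin, fell to 36.8 ± 9.96 CPM in RPC against 71.7 ± 21.9 CPM in RP tumours (SD, n = 7 each), a log2 fold change of -0.96 (SE 0.22) at an edgeR adjusted p of 0.0366. That call was lost in 9 of the 14 fits that left out 1 library, those without RP tumours 2, 4, 5 or 6 or RPC tumours 1, 3, 4, 5 or 6 (adjusted p = 0.0534 to 0.0757), and without RPC tumours 3, 5 and 6 (0.223, at -0.84). Pdcd6, whose protein ALG-2 binds annexins A7 and A11, was at 72.6 ± 8.37 and 66.1 ± 7.94 CPM in RPC and RP tumours (log2 fold change 0.13, SE 0.11, adjusted p = 0.507), and Sri, which encodes sorcin, a partner of annexin A7, at 48.5 ± 14.3 and 52.4 ± 14.2 CPM (-0.11, SE 0.23, adjusted p = 0.799). The calpain subunit genes Capn2 and Capns1 had the highest levels of the list and log2 fold changes of -0.20 (SE 0.18) and -0.09 (SE 0.19).

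**Figure D4:**
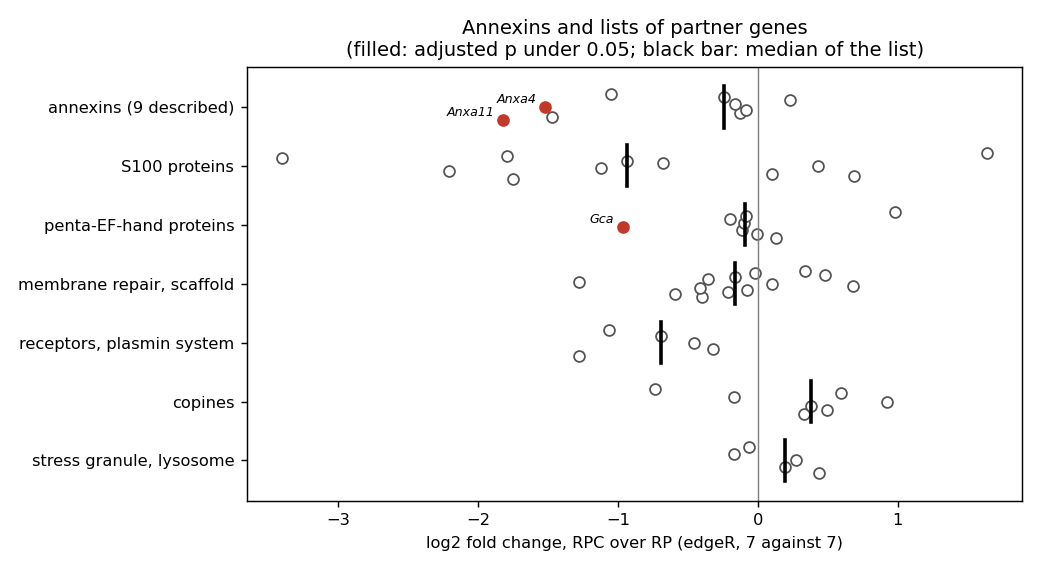
Log2 fold change of RPC over RP (edgeR, 7 libraries against 7) for each tested gene of the annexins and of 6 lists of related genes, with a black bar at each list's median and filled points for genes with an adjusted p under 0.05. Filled among the lists are Anxa4 and Gca; Anxa11 is also filled and enters the bar of the annexins, but was chosen by this comparison.

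Among 13 tested genes of membrane repair and annexin scaffolds, edgeR called 0, with a median log2 fold change of -0.16. At an unadjusted p under 0.05, 1 was lower and 2 higher, where 21.3% of all genes tested passed in either direction. Chmp4b, an ESCRT-III subunit that closes membrane wounds, was at 146 ± 12.4 and 163 ± 34.7 CPM in RPC and RP tumours, and Pdcd6ip, which encodes the ESCRT adaptor ALIX, at 132 ± 19.2 and 169 ± 23.9 CPM (log2 fold change -0.35, SE 0.12, edgeR adjusted p = 0.128). Receptors and the plasmin system had 5 tested genes, all with negative values (median -0.69) and 0 called by edgeR. At an unadjusted p under 0.05, 1 was lower and 0 higher, against the same 21.3%. Without RPC tumours 3, 5 and 6, 6 genes could be tested, with Fpr1 added (log2 fold change -0.345). Of those 6, 3 were negative and the median was -0.16, so the medians cover different genes. The protease inhibitor gene Serpine2 was at 122 ± 49.4 and 255 ± 175 CPM, and Plat, which encodes tissue plasminogen activator, at 13.4 ± 8.95 and 16.8 ± 9.72 CPM in RPC and RP tumours (edgeR adjusted p = 0.132 and 0.785). The formyl peptide receptors Fpr1 and Fpr2, receptors of annexin A1, were near the limit of counting, at a mean of 0.510 and 0.602 CPM in RPC and 1.01 and 1.49 CPM in RP tumours.

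Copines are another family of calcium-dependent membrane-binding proteins. Of 7 tested, 0 were called by edgeR, and their median log2 fold change was 0.38. At an unadjusted p under 0.05, 0 were lower and 1 higher, where 21.3% of all genes tested passed in either direction. Cpne1 and Cpne3 had the highest levels and values of 0.33 (SE 0.21) and 0.38 (SE 0.13). The 5 genes of stress granules and lysosomes had 0 calls (0 at an unadjusted p under 0.05) and a median of 0.20, with Caprin1 at 582 ± 140 and 483 ± 170 CPM and Lamp1, a lysosomal membrane glycoprotein gene, at 366 ± 70.2 and 413 ± 40.9 CPM in RPC and RP tumours (SD, n = 7 each).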

How the data were processed

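RNA was measured in 14 libraries, 7 RPC and 7 RP. Per the labels' protocols, mRNA was isolated from TRIzol extracts with oligo dT beads for a NEBNext Ultra kit. The deposited files give raw read counts per gene symbol, which the authors did not normalize. The submitters' processing notes name mm9, TopHat2 2.0.12, HTSeq 0.6.1 and bcl2fastq 1.8.2; the strand setting and the annotation were not among the details given. The 5 summary rows of each file were left out of library sizes, of which reads outside genes made up 15.1% to 20.5% and reads with several alignments 8.44% to 11.2% of a file. No 2 libraries of a genotype were repeats of each other (chi-square per degree of freedom at least 62.1 over 42 pairs).

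RPC was compared with RP in R 4.3.3 by the quasi-likelihood test of edgeR 4.0.16 (filterByExpr with minimum count 10 and total 15, TMM, no covariate), with p-values adjusted by Benjamini-Hochberg over all 14804 genes tested and called at 0.05. The SE is the size of the log2 fold change over the root of F, and 2 is the prior count behind log2 CPM. The fit was tested on simulated data. The members and the lists of partners and markers were chosen with earlier results of these data known. Genes were named by a rule: all annexins, 3 tested genes on each side of Anxa11, called genes and the 2 of highest mean CPM over all libraries in each partner list, and the 5 most like Anxa11. Other genes named, such as known partners and single markers, were chosen after their values were seen. From the list of receptors and the plasmin system, 1 gene is not reported here and was left out of its counts and medians. Alternatives were other scalings and filters, DESeq2 1.42.0, limma-voom (limma 3.58.1), the tumour number as a block, a term for markers of other cell types, and leaving out RPC tumours 3, 5 and 6 or each library in turn; those for Gca were added after seeing the data. Transcript lengths are from GENCODE vM21 and promoters from RefSeq GRCm38.p6, so no mm9 position is printed.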

Additional observations from a re-analysis of the deposited data

Results flagged for a closer look

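In 12 of 86 sets of 7 libraries, a gene in a genotype, 1 library lay far from the other 6. The gap is one that chance gives in about 1 set of 20 if values are normally distributed. Levels in CPM need not be, and all 12 flagged values were the highest of their set. The sets also include genes named for their likeness to Anxa11, so the share flagged is no test of an excess. RP tumour 2 was far above the other RP tumours for Anxa11 (296 CPM, next 147), and also for Pdzd7 (39.2, next 13.5), Btd (18.7, next 10.6) and Irf9 (135, next 58.2), genes that were named for their likeness to Anxa11. RP tumour 6 was far above for Anxa1 (345 CPM, next 165), S100a16 (1320, next 134) and S100a14 (818, next 69.3).

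Single libraries stood out for Anxa3 in RPC tumour 2 (108 CPM, next 36.6), Anxa8 in RP tumour 1 (8.18, next 3.28), Anxa10 in RP tumour 4 (3.91, next 1.64), Fpr1 in RPC tumour 2 (2.21, next 0.571) and Fpr2 in RP tumour 7 (5.44, next 1.74).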

How the results depend on the processing

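Every RPC value lay below every RP value for Anxa11 and Anxa4, so leaving out libraries could hardly turn their sign. Anxa11 kept a negative log2 fold change in all 24 alternatives, from -1.93 to -1.59 in the 14 fits that left out 1 library and from -1.86 to -1.62 in the other 10. Since it was chosen by this comparison, its calls are no support; as a limit, its edgeR adjusted p was over 0.05 without RPC tumours 3, 5 and 6 (0.078) and with the marker term, the mean log2 CPM of markers of other cell types (0.109). Anxa4 was negative in all 24 as well (-1.64 to -1.39 and -1.55 to -1.22). It lost its call in 4, the 3 given above and the marker term (adjusted p = 0.167, at -1.27). Its edgeR adjusted p was only just under the threshold with the replicate block (0.0499) and without RP tumour 4 (0.0499). The count of the other 8 annexins called lower was therefore 0 without RPC tumours 3, 5 and 6, 0 with the marker term, and 0 to 1 over the fits that left out 1 library; it was 1 in the other 8 alternatives. The count called higher was 0 in all of them.

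Signs turned for members that were not called. With the marker term the log2 fold changes were 0.46 for Anxa2, 0.56 for Anxa3, 0.31 for Anxa5 and 0.16 for Anxa7, and without RPC tumours 3, 5 and 6 they were 0.44, 0.67, 0.23 and 0.070. Leaving out 1 library gave Anxa2 values from -0.43 to 0.05 (above 0 without RPC tumour 3, at 0.052, or 6, at 0.050) and Anxa3 values from -1.03 to 0.14 (above 0 without RP tumour 1, at 0.007, or RPC tumours 3, 4, 5 or 6, at 0.11, 0.081, 0.14 and 0.12). Sizes also moved with the method for Anxa1 and Anxa3, which were not called in any alternative. They were at -3.45 and -1.86 with limma-voom and at -2.73 (SE 1.25) and -1.56 (SE 0.869) with the replicate block. Why the values moved was not tested beyond these fits.

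Tumour numbers are shared by the genotypes. Correlations between same-numbered tumours were -0.05 to 0.32, and 2 of 7 RP tumours were most like their own number. No clear pairing by number was seen, but so few correlations cannot exclude one. With the replicate block, 1 of the 8 was called lower (Anxa4, edgeR adjusted p = 0.0499) and 0 higher. The block gave 51 genes called lower and 23 higher over all genes. Gca lost its call with the block (adjusted p = 0.0714) and with the marker term (0.248). Over all genes, 166 were called lower and 161 higher, against 742 and 689 with DESeq2, 292 and 211 with limma-voom, 2 and 3 with the marker term, 8 and 3 without RPC tumours 3, 5 and 6, and 27 to 434 and 24 to 481 over the fits that left out 1 library. Low counts limit Anxa8, Anxa10 and Anxa13.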
